A study of Mus musculus with 12 samples.

Results

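The 7 genes described here encode ligands that antigen-presenting cells, and many other cells, show to receptors on T and NK cells. They are Cd274 (PD-L1, the protein bound by the antibody used in the study), Pdcd1lg2 (PD-L2), Cd80 and Cd86 (the classical B7 proteins), Icosl (the ligand of ICOS), Lgals9 (galectin-9) and Pvr (CD155). The genes were taken by symbol, as ligands of the PD-1 and CD28 receptor families with galectin-9 and the nectin-like PVR added. The rule itself uses no measured value, but the genes were chosen with earlier results of these data known. All 7 were among the 24319 entries of the deposited table. All 7 also passed the filter on low values, which kept 11991 genes that reached 1 FPKM or more in 3 or more libraries of the 12. FPKM counts RNA fragments per length of transcript and per number of mapped fragments in the library, so levels of different genes can be set side by side.

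RNA came from CD45+ cells, that is, immune cells, pulled with magnetic beads from livers of C57BL/6 mice, and 3 libraries were made in each of 4 groups. All mice, controls included, carried human c-Myc and N-ras, oncogenes put into the liver by hydrodynamic transfection (a fast, large injection into a vein that carries DNA mainly into hepatocytes) on day 0. PolyIC is a synthetic mimic of viral RNA. Combination mice were given 4 mg/kg of it into the abdomen on days 14, 16, 18, 20 and 22, and 200 µg of PD-L1 antibody on days 17, 19 and 21. The antiPDL1 group had the same antibody doses with PBS in place of polyIC. The polyIC group had the same polyIC doses with 200 µg of IgG in place of the antibody. Control mice had PBS and IgG on those days. Livers were taken on day 24 by the protocol, although the time point label gives day 22. The labels do not say whether the 3 libraries of a group came from separate mice, so the p-values below measure the spread between these libraries, which may be technical.

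T cells need a costimulatory signal beside the antigen. CD80 and CD86 on dendritic cells, macrophages and B cells give it through CD28, and CTLA-4 competes for the same pair of ligands and restrains the response. ICOSL acts on ICOS, a CD28 relative that supports helper T cells. PD-L1 and PD-L2 bind PD-1 on activated T cells and dampen them; PD-L1 is made by many cell types and is induced by interferon gamma through JAK kinases and IRF1, whereas PD-L2 is largely a product of dendritic cells and macrophages and is known to follow interleukin-4 as well. PD-L1 also binds CD80 on the same cell. Galectin-9 is a sugar-binding protein known as a ligand of TIM-3 (gene Havcr2). CD155 binds the activating receptor CD226 and the inhibitory receptors TIGIT and CD96. In the liver, Kupffer cells, which are the resident macrophages, sinusoidal endothelial cells and dendritic cells all present such ligands.

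Several libraries stood apart from their groups. Across genes, antiPDL1 replicate 2 correlated best with the controls, antiPDL1 replicate 0 with the combination libraries, and control replicate 2 with the polyIC libraries, while the other 9 libraries were closest to their own group. Relative depth, read from the steps between low values, ran from 0.47 to 1, and the absolute depth of the libraries is unknown. Ptprc, which encodes CD45, lay between 206 and 487 FPKM in all 12 libraries. Hepatocyte markers were still present, summed over 11 genes, at 420 to 626 FPKM in combination, 720 to 2588 FPKM in antiPDL1, 1946 to 2736 FPKM in polyIC and 1719 to 4907 FPKM in control libraries. In such bulk RNA, fewer cells of a type and less RNA per cell cannot be told apart.

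The ligand genes covered a wide span of levels. Averaged over the 12 libraries, Lgals9 was the highest at 163 FPKM, followed by Cd86 at 76.8, Cd274 at 30.7, Icosl at 22.7, Cd80 at 10.2, Pvr at 6.69 and Pdcd1lg2 at 3.64 FPKM. Lgals9 lay above 96% of the genes tested and Pdcd1lg2 above 21.6%. Lgals9 exceeded Cd86, Cd86 exceeded Cd274, Icosl exceeded Cd80 and Cd80 exceeded Pvr in 12 of 12 libraries. Pvr exceeded Pdcd1lg2 in 11 of 12, the exception being antiPDL1 replicate 0. The order of Cd274 and Icosl differed between the groups: Cd274 was the higher in 3 of 3 combination libraries and 3 of 3 antiPDL1 libraries, in 1 of 3 polyIC libraries and in 0 of 3 control libraries. In antiPDL1 replicate 2 the Cd274 and Icosl levels were nearly equal, at 20.5 and 20.4 FPKM.

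**Figure D1:**
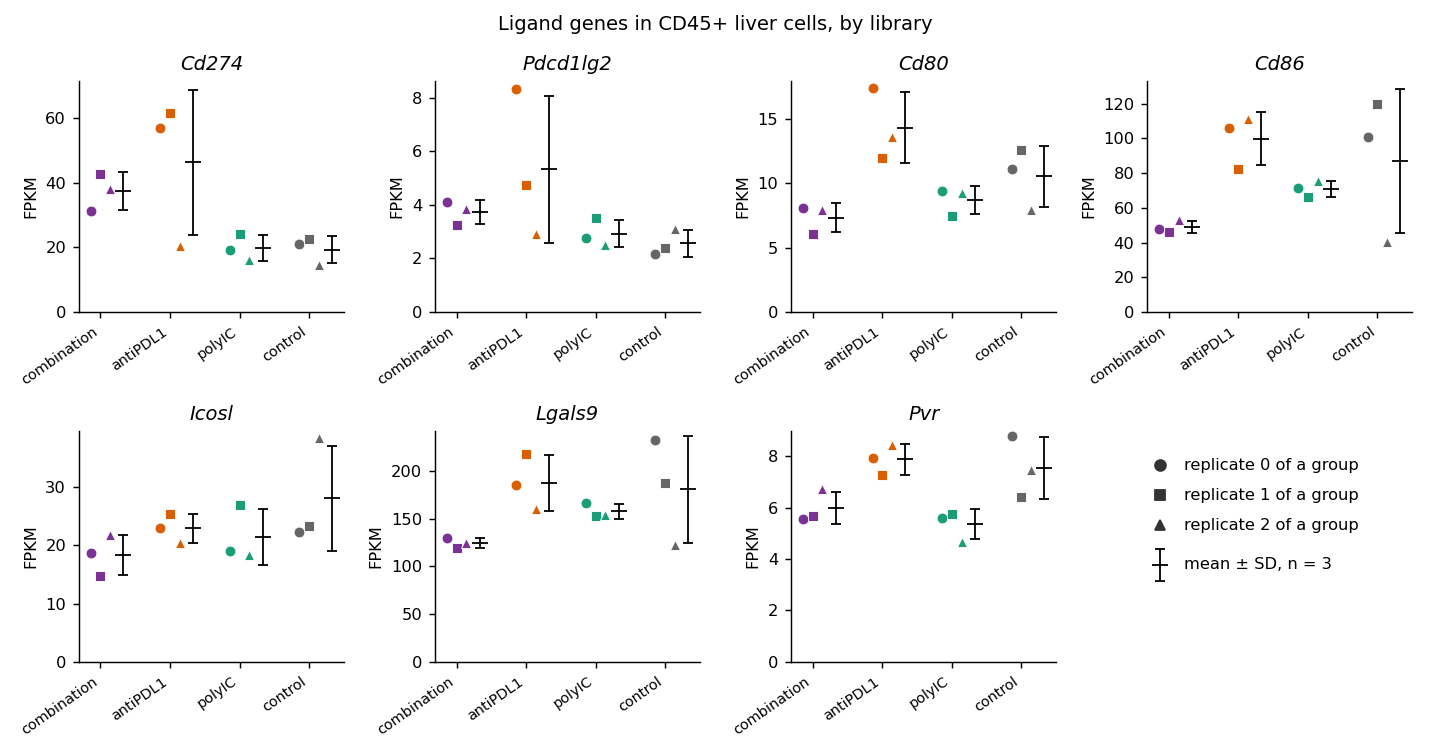
Level of each of the 7 ligand genes in FPKM (vertical axes, each starting at 0) in the combination, antiPDL1, polyIC and control libraries. Each point is 1 library, with the shape giving its replicate number, and the bars are the mean ± SD of 3. Cd274 is high in the 3 combination libraries (31.3 to 42.8 FPKM) and in 2 antiPDL1 libraries (56.8 and 61.6 FPKM), and Cd86 and Lgals9 are low in the combination libraries and in control replicate 2.

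Cd274 stood higher in 5 of the 6 libraries of the antibody groups than in all 6 libraries without the antibody. Cd80, Cd86, Lgals9 and Pvr were lower in every combination library than in every antiPDL1 library. Pdcd1lg2, Icosl, Cd80, Cd86, Lgals9 and Pvr, set against control, all differed by less than 1 on the log2 scale in each treated group. Among the ligand genes, only Cd274 in antiPDL1 against control differed by more, at 1.09.

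Differences were tested with limma on log2(FPKM + 1), with p-values adjusted by Benjamini-Hochberg over all 11991 genes and a threshold of 0.05. Fold changes on this scale understate the change of low genes such as Pdcd1lg2. Set against control, none of the 7 genes passed in the combination, where 29.4% of all genes tested did. At an unadjusted p under 0.05 the count was 3 of 7 (Cd274, Cd80 and Icosl), a share close to the 42.6% of all genes. Without overlap, Cd274 and Pdcd1lg2 lay above control (25.6% of all genes did) and Icosl below (20.3%). In antiPDL1 against control, 0 of 7 passed limma beside 0.208% of all genes, and 2 of 7 (Cd274 and Pdcd1lg2) had an unadjusted p under 0.05 beside 17.0%; for none of the 7 were these groups without overlap, as they were for 12.5% of all genes. In polyIC against control, 0 of 7 passed limma beside 3.64% of all genes, and 1 of 7 (Pvr) had an unadjusted p under 0.05 beside 22.2%; Pvr was also the one gene of the 7 with no overlap, lying below as did 12.4% of all genes. The 3 comparisons share the control libraries. The median log2 change over the 7 genes was -0.46 in the combination, 0.32 in antiPDL1 and -0.16 in polyIC, where the medians over all genes tested were 0.054, 0.007 and -0.014.

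Because the 4 groups cross both agents, the 6 libraries that had the antibody were also compared with the 6 that had not, and the 6 that had polyIC with the 6 that had not, in the same fit. These 2 comparisons were added after the values had been seen and use the same libraries again, so they are not independent of the ones above. Cd274 rose with the antibody, 1 of 7 genes beside 7.66% of all genes tested (1.98% in the upward direction). Cd80 and Pvr fell with polyIC, 2 of 7 genes beside 13.7% of all genes (6.78% in the downward direction). At an unadjusted p under 0.05 there were 2 of 7 with the antibody, beside 28.6% of all genes, and 4 of 7 with polyIC, beside 30.9%.

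**Figure D2:**
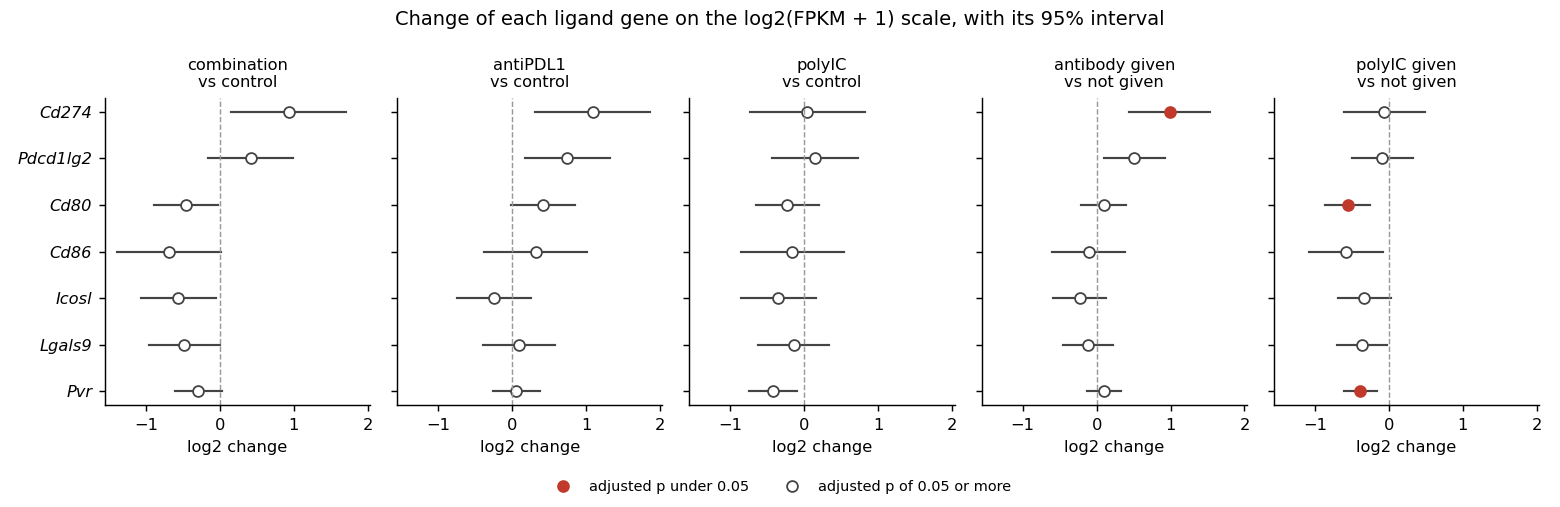
Log2 change of the 7 ligand genes (horizontal axes, log2(FPKM + 1) scale) with its 95% interval in 5 comparisons, the dashed line marking no change. Filled points have a limma adjusted p under 0.05 over all genes tested: Cd274 at 0.99 with the antibody, and Cd80 at -0.55 and Pvr at -0.39 with polyIC.

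The PD-1 ligands come first. Cd274 levels were 31.3, 42.8 and 38.1 FPKM in the combination libraries, 56.8, 61.6 and 20.5 FPKM in the antiPDL1 libraries, 19.3, 24.1 and 16.2 FPKM in the polyIC libraries, and 20.9, 22.5 and 14.6 FPKM in the control libraries. All 3 combination libraries lay above every polyIC and control library, and antiPDL1 was split, with replicates 0 and 1 the highest of all 12 and replicate 2 within the control range. The polyIC and control ranges overlapped almost entirely. The means were 37.4 ± 5.75 FPKM in combination, 46.3 ± 22.5 in antiPDL1, 19.8 ± 3.98 in polyIC and 19.3 ± 4.2 in control (SD, n = 3 each).

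Against control, the Cd274 log2 change was 0.93 (SE 0.354, 95% interval 0.15 to 1.71, limma adjusted p = 0.069) in the combination and 1.09 (SE 0.354, limma adjusted p = 0.211) in antiPDL1. In polyIC it was 0.04 (SE 0.354, 95% interval -0.74 to 0.82, limma adjusted p = 0.964). Adding the antibody to polyIC gave 0.89 (SE 0.354, limma adjusted p = 0.284), again with no overlap of the groups. Adding polyIC to the antibody gave -0.16 (95% interval -0.94 to 0.61, limma adjusted p = 0.876). The change with polyIC did not differ detectably with and without the antibody (interaction -0.20, 95% interval -1.30 to 0.90, limma adjusted p = 0.999).

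With both antibody groups pooled, Cd274 was higher by 0.99 on the log2 scale (SE 0.251, 95% interval 0.44 to 1.54, limma adjusted p = 0.0379), and 5 of the 6 antibody libraries lay above all 6 others. This call was kept without control replicate 2 and without antiPDL1 replicate 2 and lost without each of the other 10 libraries; the 12 fits gave log2 changes of 0.85 to 1.24 and limma adjusted p-values from 0.000718 to 0.102. The comparisons of single groups changed with antiPDL1 replicate 2. Without that library, Cd274 passed in antiPDL1 against control (log2 1.59, limma adjusted p = 0.00276), in the combination against control (0.93, adjusted p = 0.00581) and in the combination against polyIC (0.89, adjusted p = 0.0361). The estimates of 0.93 and 0.89 were the same with that library. Over all genes the calls in these comparisons were 2086, 4504 and 484 without it, and 25, 3527 and 148 with it. In each of these comparisons Cd274 did not pass in the other 11 fits that left out 1 library. Without antiPDL1 replicate 0, the Cd274 change in antiPDL1 against control was 0.87 (limma adjusted p = 0.697). Without control replicate 2, the Cd274 change in the combination against control was 0.75 (limma adjusted p = 0.167).

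In RefSeq Cd274 overlaps Plgrkt, the gene of a plasminogen receptor, and the sources used here do not say whether strand was used in counting, so reads in the overlap cannot be told apart. Plgrkt itself averaged 83.6 ± 12 FPKM in combination, 84.9 ± 31.5 in antiPDL1, 62.5 ± 6.90 in polyIC and 46.2 ± 10.2 in control (SD, n = 3 each). Its value in antiPDL1 replicate 2 was 48.5 FPKM, against 101 and 105 FPKM in the other antiPDL1 libraries. The part of such shared reads in the Cd274 values was not tested.

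Pdcd1lg2, next to Cd274 on chromosome 19, was the lowest of the 7. It had 4.12, 3.24 and 3.85 FPKM in the combination, 8.32, 4.76 and 2.90 FPKM in antiPDL1, 2.76, 3.51 and 2.52 FPKM in polyIC and 2.17, 2.40 and 3.12 FPKM in control libraries. The combination libraries all lay narrowly above the controls, and antiPDL1 again ran from the highest value of all to one inside the control range. The log2 change was 0.42 (SE 0.264, limma adjusted p = 0.251) in the combination, 0.75 (SE 0.264, adjusted p = 0.23) in antiPDL1 and 0.14 (adjusted p = 0.782) in polyIC. Pooled over the antibody groups it was 0.51 (95% interval 0.10 to 0.92, limma adjusted p = 0.108). Without antiPDL1 replicate 2 the change passed in antiPDL1 against control (1.05, limma adjusted p = 0.0134) and in the pooled comparison (0.66, adjusted p = 0.0096). Over all genes the calls in these comparisons were 2086 and 3631 without it, and 25 and 919 with it. Without antiPDL1 replicate 0 instead, which held the highest value, the Pdcd1lg2 changes were 0.42 (limma adjusted p = 0.737) and 0.35 (adjusted p = 0.206). The calls over all genes were then 1 and 253.

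The stretches around the starts of both PD-1 ligand genes and of Lgals9 are shown because Cd274 and Pdcd1lg2 are neighbouring genes whose windows held different motifs, and Lgals9 is the other of the ligand genes whose window held the interferon motif. They are 300 bases long, from 250 before to 50 after the RefSeq start of transcription, in build GRCm38.p6 (the authors' values were made on mm9), and are written 5′ to 3′ on the gene's strand. Capitals mark matches to the core of the interferon-stimulated response element, searched as GAAANNGAA on both strands; all the matches were on the strand opposite to the gene. Cd274 lies at chr19:29367188-29367487 on the plus strand, Pdcd1lg2 at chr19:29410669-29410968 on the plus strand and Lgals9 at chr11:78984875-78985174 on the minus strand.
Cd274: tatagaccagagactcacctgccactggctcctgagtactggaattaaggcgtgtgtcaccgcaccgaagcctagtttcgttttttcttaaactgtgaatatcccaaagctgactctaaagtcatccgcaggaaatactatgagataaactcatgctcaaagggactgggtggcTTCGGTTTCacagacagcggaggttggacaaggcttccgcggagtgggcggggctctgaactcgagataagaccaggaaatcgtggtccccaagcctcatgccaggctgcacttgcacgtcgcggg
Pdcd1lg2: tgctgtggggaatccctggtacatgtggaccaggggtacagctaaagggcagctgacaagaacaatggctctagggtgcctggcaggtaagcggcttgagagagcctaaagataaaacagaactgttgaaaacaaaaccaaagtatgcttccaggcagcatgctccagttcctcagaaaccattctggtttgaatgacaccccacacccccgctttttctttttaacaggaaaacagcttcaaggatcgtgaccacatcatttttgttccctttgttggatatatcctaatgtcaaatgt
Lgals9: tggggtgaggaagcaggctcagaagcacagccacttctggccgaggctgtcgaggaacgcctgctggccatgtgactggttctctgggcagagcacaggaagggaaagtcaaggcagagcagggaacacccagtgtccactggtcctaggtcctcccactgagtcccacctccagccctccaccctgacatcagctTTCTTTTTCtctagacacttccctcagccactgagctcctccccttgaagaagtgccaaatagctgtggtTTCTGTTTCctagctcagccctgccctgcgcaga
Cd274 held 1 match, TTCGGTTTC, 76 to 68 bases before the start. Lgals9 held 2, TTCTTTTTC at 54 to 46 bases before the start and TTCTGTTTC at 17 to 25 bases after it. No match lay in the windows of Pdcd1lg2, Cd80 and Icosl, and the same core was present in 8.56% of the 32851 mouse promoters in the RefSeq table. The NF-kappaB-type motif GGGNNNNNCC was in 4 of 5 (all but Cd274) and in 50.8% of all promoters, and no match to it overlapped a match to the interferon motif. Cd86 and Pvr were not in the promoter table. A match to such short letters is a description of the sequence and not evidence of binding.

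The CD28 and CTLA-4 ligands, Cd80 and Cd86, did not follow the PD-1 ligands. Cd80 stood at 8.06, 6.05 and 7.90 FPKM in the combination, 17.4, 12 and 13.6 FPKM in antiPDL1, 9.39, 7.50 and 9.26 FPKM in polyIC and 11.1, 12.6 and 7.95 FPKM in control libraries. The combination libraries were the lowest group and the antiPDL1 libraries the highest, and those 2 groups did not overlap; control replicate 2 lay at the level of the combination. The largest Cd80 difference was the one between combination and antiPDL1, -0.87 on the log2 scale (SE 0.196, 95% interval -1.30 to -0.44, limma adjusted p = 0.0936, unadjusted p = 0.000901).

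Cd80 was lower by 0.46 in the combination than in control (log2 -0.46, SE 0.196, limma adjusted p = 0.0985), higher in antiPDL1 than in control by 0.42 (adjusted p = 0.307), and at -0.23 (adjusted p = 0.506) in polyIC. Its interaction estimate was -0.64 (95% interval -1.25 to -0.03, limma adjusted p = 0.999, unadjusted p = 0.0406). With both polyIC groups pooled, Cd80 fell by 0.55 on the log2 scale (95% interval -0.86 to -0.25, limma adjusted p = 0.0262). That call was lost in 5 of the 12 fits that left out 1 library (control replicate 0 or 1, polyIC replicate 0 or 1, or combination replicate 1), and over the 12 fits the limma adjusted p ran from 0.00581 to 0.0763 and the log2 change from -0.64 to -0.48.

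Cd86 was the more abundant of the pair in every library. Its levels were 47.9, 46.2 and 52.9 FPKM in the combination, 106, 82.5 and 111 FPKM in antiPDL1, 71.2, 66.1 and 75.6 FPKM in polyIC and 101, 120 and 40.6 FPKM in control libraries. The combination libraries lay below all polyIC and antiPDL1 libraries, and 2 of the 3 controls lay with antiPDL1 while control replicate 2 was the lowest of the 12. The Cd86 log2 change was -0.68 (SE 0.320, limma adjusted p = 0.126) in combination against control, -1.0 (95% interval -1.71 to -0.30, adjusted p = 0.206) in combination against antiPDL1 and -0.52 (adjusted p = 0.51) in combination against polyIC. In antiPDL1 against control it was 0.32 (adjusted p = 0.603) and in polyIC against control -0.16 (adjusted p = 0.801).

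Several Cd86 comparisons changed with control replicate 2. Without it, Cd86 passed in the combination against control (log2 -1.16, limma adjusted p = 0.000974), in the combination against antiPDL1 (-1.0, adjusted p = 0.0255) and in polyIC against control (-0.63, adjusted p = 0.0342), and its sign in antiPDL1 against control turned to -0.15 (adjusted p = 0.612). In combination against polyIC the change was -0.52 without it as with it (adjusted p = 0.0951). Cd80 without that library passed in the combination against control (-0.63, limma adjusted p = 0.0268) and against antiPDL1 (-0.87, adjusted p = 0.0352). Lgals9 passed in the combination against control (-0.74, adjusted p = 0.00952). Over all genes, leaving out control replicate 2 took the calls from 3527 to 4150 in the combination against control. They went from 15 to 275 in the combination against antiPDL1 and from 437 to 1869 in polyIC against control.

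Icosl, the ICOS ligand, was 18.6, 14.7 and 21.7 FPKM in the combination, 22.9, 25.4 and 20.4 FPKM in antiPDL1, 19.1, 26.9 and 18.3 FPKM in polyIC and 22.3, 23.4 and 38.5 FPKM in control libraries. The combination libraries lay narrowly below the controls without overlap, while control replicate 2 stood far above all other libraries. The log2 change was -0.56 (SE 0.232, 95% interval -1.07 to -0.05, limma adjusted p = 0.0898) in the combination, -0.24 (adjusted p = 0.581) in antiPDL1 and -0.35 (adjusted p = 0.393) in polyIC. Without control replicate 2 the Icosl change in the combination was -0.32 (limma adjusted p = 0.266).

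Lgals9, the galectin gene, had 130, 119 and 125 FPKM in the combination, 185, 218 and 160 FPKM in antiPDL1, 167, 153 and 154 FPKM in polyIC and 233, 187 and 122 FPKM in control libraries. The combination group was the tightest and lay below all polyIC and antiPDL1 libraries; control replicate 2 fell inside the combination range. Its log2 change in the combination was -0.48 against control (SE 0.220, limma adjusted p = 0.12), -0.57 against antiPDL1 (adjusted p = 0.272) and -0.34 against polyIC (adjusted p = 0.534). Against control it was 0.10 (adjusted p = 0.835) in antiPDL1, where quantile normalization turned it to -0.13, and -0.14 (adjusted p = 0.737) in polyIC.

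Pvr, which encodes CD155, had 5.55, 5.69 and 6.71 FPKM in the combination, 7.92, 7.27 and 8.45 FPKM in antiPDL1, 5.60, 5.76 and 4.68 FPKM in polyIC and 8.79, 6.40 and 7.47 FPKM in control libraries. All 3 polyIC libraries lay below all 3 controls, and all 3 combination libraries below all 3 antiPDL1 libraries. The log2 change was -0.43 in polyIC against control (SE 0.146, 95% interval -0.75 to -0.10, limma adjusted p = 0.126), -0.29 in combination against control (adjusted p = 0.156) and -0.35 in combination against antiPDL1 (adjusted p = 0.312). Pooled over both polyIC groups, Pvr fell by 0.39 (95% interval -0.61 to -0.16, limma adjusted p = 0.0332). This was lost in 7 of the 12 fits without 1 library (control replicate 0, any polyIC replicate, antiPDL1 replicate 2, or combination replicate 0 or 1), and the limma adjusted p ran from 0.0281 to 0.0891.

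Set against each other, the combination and antiPDL1 groups, which differ by polyIC, had 4 of the 7 genes lower in every combination library (Cd80, Cd86, Lgals9 and Pvr), a pattern that 12.1% of all genes tested showed. None of the 7 passed limma there, beside 0.125% of all genes, and the same 4 had an unadjusted p under 0.05, beside 14.4%. Between combination and polyIC, which differ by the antibody, Cd274 lay above without overlap (13.3% of all genes did) and Cd86 and Lgals9 below (16.1%). None of the 7 passed limma in that comparison, beside 1.23% of all genes, and 1 of 7 (Cd274) had an unadjusted p under 0.05, beside 13.5%. In the interaction 0 of 7 passed limma, beside 0.025% of all genes, and 1 of 7 (Cd80) had an unadjusted p under 0.05, beside 2.44%.

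The balance between ligands was then described within libraries, where differences in scaling between libraries cancel. As a share of the summed FPKM of Cd274, Pdcd1lg2, Cd80 and Cd86, a measure chosen after the values had been seen, Cd274 made up 34.3%, 43.5% and 37.1% in the combination, 30.1%, 38.3% and 13.9% in antiPDL1, 18.8%, 23.8% and 15.6% in polyIC and 15.5%, 14.3% and 22.0% in control libraries. Cd86 made up 50.3% ± 2.88 in the combination and 70.8% ± 8.22 in control (SD, n = 3 each). The combination libraries had the highest Cd274 shares beside antiPDL1 replicates 0 and 1, and the summed FPKM of the 4 genes was 91.4 to 103 in the combination, 148 to 189 in antiPDL1, 101 to 104 in polyIC and 66.3 to 158 in control libraries.

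Ratios were tested for 3 pairs that share a receptor or bind each other. The ratio of Cd274 to Cd80 was 3.89, 7.06 and 4.82 in the combination, 3.26, 5.13 and 1.5 in antiPDL1, 2.05, 3.21 and 1.74 in polyIC and 1.89, 1.79 and 1.83 in control libraries. All combination libraries lay above all controls, with a log2 difference of 1.39 (two-sided exact permutation p = 0.1, the smallest that 3 against 3 libraries can give; adjusted p = 0.9 over the 9 ratio tests). The ratios of Cd274 to Pdcd1lg2 and of Cd80 to Cd86 overlapped between each treated group and control, with log2 differences of -0.10 to 0.51 and exact permutation p-values of 0.3 to 1.

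**Figure D3:**
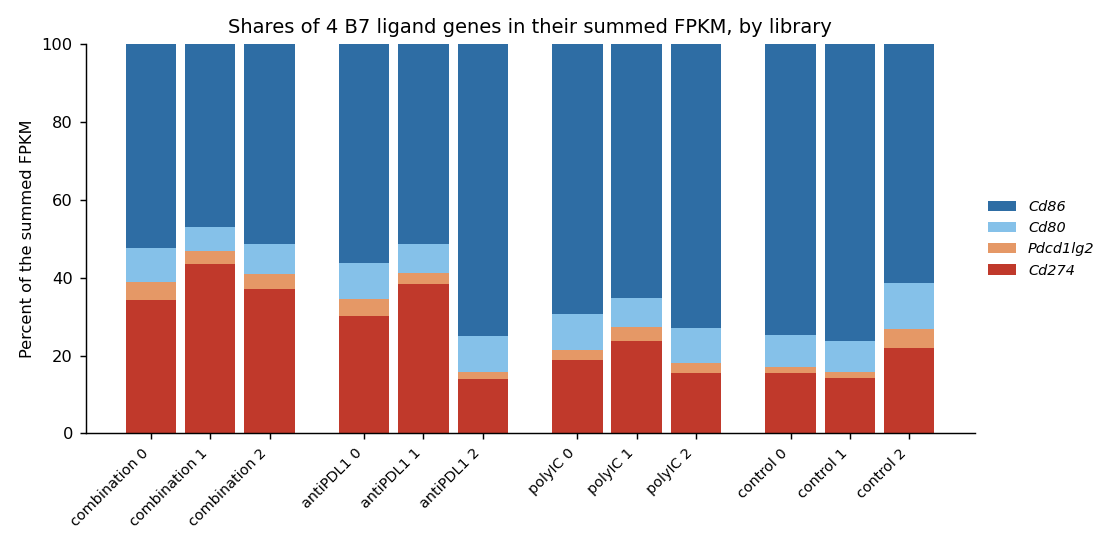
Share of Cd274, Pdcd1lg2, Cd80 and Cd86 in their summed FPKM (vertical axis, percent) in each of the 12 libraries (1 bar each, grouped as combination, antiPDL1, polyIC and control). Cd274 takes 34.3% to 43.5% in the combination libraries and 14.3% to 22.0% in the control libraries, and antiPDL1 replicate 2 has the lowest Cd274 share at 13.9%.

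The receptors of these ligands were followed in the same libraries. Of 10 receptor genes in a list drawn up with earlier results of these data known, 8 rose and 2 fell in the combination against control, with a median log2 change of 1.44 beside 0.054 over all genes, where 13.1% of all genes rose and 16.3% fell. Pdcd1 (PD-1) averaged 219 ± 41.6 FPKM in combination and 5.35 ± 2.68 FPKM in control (log2 5.19, limma adjusted p = 0.00197). Ctla4 averaged 97.0 ± 36.7 FPKM in combination and 2.87 ± 1.31 FPKM in control (4.64, adjusted p = 0.00117). Tigit averaged 290 ± 69.5 FPKM in combination and 12.7 ± 5.24 FPKM in control (4.47, adjusted p = 0.00176). Havcr2, the gene of TIM-3, averaged 64.7 ± 7.55 FPKM in combination and 15.6 ± 2.32 FPKM in control (1.99, limma adjusted p = 0.00313; SD, n = 3 each throughout).

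The other 4 receptor genes that rose did so by 0.94 to 1.63 on the log2 scale. The 2 that fell, named here after their values were seen, were Cd44 (-0.55, limma adjusted p = 0.0293), which binds galectin-9 among other partners, and Rgmb (-0.87, adjusted p = 0.0175), a further binding partner of PD-L2. In polyIC against control 5 of the 10 rose (2.47% of all genes did), among them Pdcd1 (4.24, limma adjusted p = 0.0151) and Tigit (3.47, adjusted p = 0.0151). In antiPDL1 against control 0 of 10 passed limma and 5 were higher at an unadjusted p under 0.05, beside 7.61% of all genes. T cell markers moved with the receptors: 11 of 11 rose in the combination, and their summed level was 2589 to 3346 FPKM in combination, 827 to 2213 FPKM in antiPDL1, 1687 to 2426 FPKM in polyIC and 394 to 1104 FPKM in control libraries. NK cells are known to carry TIGIT, CD226 and CD96 as well. Of 10 NK cell markers 3 rose in the combination and 7 in polyIC against control, and their summed level was 1212 to 1699 FPKM in combination, 472 to 933 FPKM in antiPDL1, 2392 to 4087 FPKM in polyIC and 229 to 644 FPKM in control libraries. The part of T and NK cell content in the receptor values was not tested.

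Genes that lead to PD-L1 were examined next. Of 15 genes of the route from interferon gamma to PD-L1, 5 rose in the combination against control, beside 13.1% of all genes. None fell (1 was lower at an unadjusted p under 0.05), beside 16.3% of all genes. Ifng, the cytokine itself, averaged 123 ± 35.9 FPKM in combination and 13.0 ± 4.17 FPKM in control (SD, n = 3 each; log2 3.15, limma adjusted p = 0.000771). Socs3, a feedback inhibitor, rose by 1.98 (adjusted p = 0.00929) and the transcription factor gene Irf1 by 1.08 (adjusted p = 0.0493). In antiPDL1 and in polyIC against control 0 of 15 passed limma. At an unadjusted p under 0.05, 3 genes were higher and 0 lower in antiPDL1, beside 7.61% and 9.35% of all genes. For polyIC, 1 was higher and 3 were lower, beside 11% and 11.2%. Between combination and polyIC 1 rose, Ifng (1.96, limma adjusted p = 0.0375), beside 0.167% of all genes. With both antibody groups pooled 3 rose, beside 1.98% of all genes, among them Ifng (1.58, limma adjusted p = 0.01) and Socs3 (1.45, adjusted p = 0.0245).

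Of 18 genes known to be induced by interferon gamma, 17 were tested and 11 rose in the combination against control, beside 13.1% of all genes. None fell (0 at an unadjusted p under 0.05 by limma), and the median log2 change was 1.26. Gbp2, a guanylate-binding protein gene, rose by 2.25 (limma adjusted p = 0.0104), the chemokine genes Cxcl9 by 2.17 (adjusted p = 0.0115) and Cxcl10 by 1.93 (adjusted p = 0.023), and the GTPase gene Iigp1 by 1.96 (adjusted p = 0.00583). In antiPDL1 against control 0 of 17 passed limma, 13 were higher at an unadjusted p under 0.05 (beside 7.61% of all genes) and the median was 1.14. In polyIC against control 0 of 17 passed limma, 0 had an unadjusted p under 0.05 and the median was 0.28. With both antibody groups pooled 9 rose, beside 1.98% of all genes, among them Gbp2 by 1.85 (limma adjusted p = 0.0202) and Cxcl10 by 1.78 (adjusted p = 0.0236). The mean log2(FPKM + 1) of the 17 genes was 6.69, 6.78 and 6.59 in the combination, 6.94, 7.07 and 5.41 in antiPDL1, 5.73, 5.60 and 5.24 in polyIC and 5.29, 5.61 and 5.16 in control libraries.

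The 5 libraries with the highest means were the 3 combination libraries and antiPDL1 replicates 0 and 1, and the same 5 libraries had the 5 highest Cd274 levels. The library antiPDL1 replicate 2 was low on both. Monocyte and macrophage markers, summed over 12 genes, were at 5879, 6324 and 7420 FPKM in combination, 13840, 9987 and 6984 FPKM in antiPDL1, 5680, 6661 and 4633 FPKM in polyIC and 6066, 7470 and 3681 FPKM in control libraries. The sum was highest in antiPDL1 replicates 0 and 1, the libraries with the highest Cd274, and the combination libraries overlapped the polyIC and control libraries. The part of these cells in the Cd274 values was not tested.

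**Figure D4:**
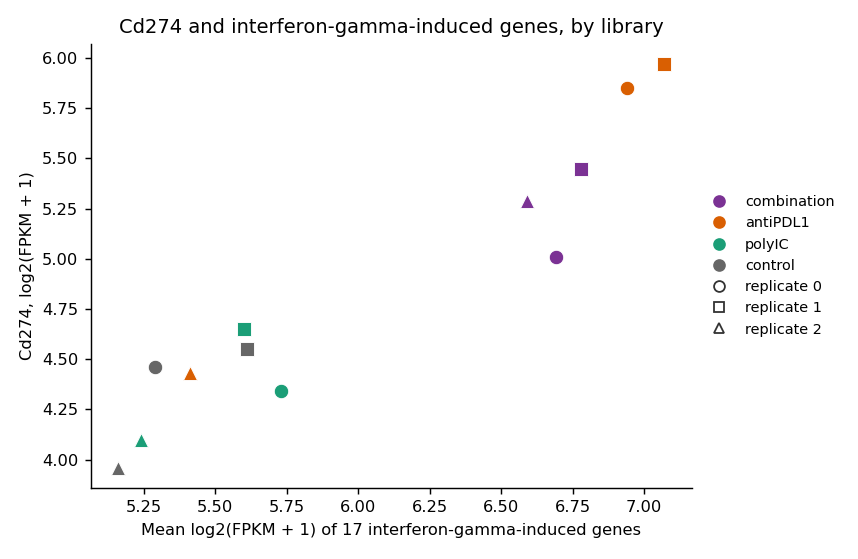
Cd274 (vertical axis, log2(FPKM + 1)) against the mean log2(FPKM + 1) of 17 genes induced by interferon gamma (horizontal axis) in the 12 libraries, coloured by group with shapes for replicate numbers. Combination libraries and antiPDL1 replicates 0 and 1 lie at 6.59 to 7.07 on the horizontal axis, and the other 7 libraries, antiPDL1 replicate 2 among them, lie at 5.16 to 5.73.

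Other known inputs were counted in the same way, beside the 13.1% of all genes tested that rose and the 16.3% that fell in the combination against control. Of 13 tested NF-kappaB and CD40 costimulation genes, 4 rose in the combination against control: Tnfsf4 (OX40 ligand; log2 1.96, limma adjusted p = 0.05, under the threshold before rounding), Traf1 (1.05, adjusted p = 0.0352), Tnfaip3 (1.02, adjusted p = 0.00693) and Tnfsf9 (4-1BB ligand; 0.93, adjusted p = 0.0165). None of the 13 fell, and 0 were lower at an unadjusted p under 0.05 by limma. Of 10 tested genes of interleukin-4 signalling and alternative macrophage activation, which are known inputs or companions of PD-L2, 5 fell and 0 rose (0 at an unadjusted p under 0.05 by limma): the macrophage mannose receptor gene Mrc1 by 3.69 (adjusted p = 0.00474), the chemokine genes Ccl17 by 3.63 (adjusted p = 0.000435) and Ccl22 by 2.85 (adjusted p = 0.0031), Retnla by 3.52 (adjusted p = 0.00212) and the arginase gene Arg1 by 1.94 (adjusted p = 0.0297). Ccl17 fell in the combination against antiPDL1 as well (-2.74, adjusted p = 0.0113). Of 12 mature dendritic cell genes, 2 rose, a share close to that of all genes, and 6 fell in the combination. The chemokine gene Ccl5 rose by 3.57 (limma adjusted p = 0.00213) and Il15ra, which presents interleukin-15, by 1.55 (adjusted p = 0.00961). Ccl22 was among those that fell, as was Ccr7, the receptor that guides these cells to lymph nodes, by 1.68 (adjusted p = 0.00834). T cells are a known source of Ccl5 as well.

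Of 9 tested members of other B7, butyrophilin-like and nectin families and their partners, 1 rose and 1 fell in the combination against control, shares close to the 13.1% and 16.3% of all genes tested. Cd160, a receptor of HVEM on NK and CD8 T cells, averaged 38.4 FPKM in combination and 16.6 FPKM in control (log2 1.26, limma adjusted p = 0.0111). Cadm1, a nectin-like adhesion gene, averaged 17.9 FPKM in combination and 57.3 FPKM in control (-1.61, adjusted p = 0.0146). In antiPDL1 against control 0 of the 9 passed limma, and 1 was higher at an unadjusted p under 0.05, beside 7.61% of all genes.

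Markers of the cells known to carry the ligands moved between the groups. Their counts stand beside the 13.1% of all genes tested that rose and the 16.3% that fell in the combination against control. In the combination against control 9 of 10 Kupffer cell markers fell, and their summed level was 280 to 616 FPKM in combination, 1168 to 7209 FPKM in antiPDL1, 1427 to 2454 FPKM in polyIC and 2136 to 9740 FPKM in control libraries. Control replicate 2, with the lowest Cd86 and the lowest Lgals9 of the controls, had the lowest Kupffer sum of the controls. Combination replicate 1 was likewise the lowest of its group in all 3. In antiPDL1 and in polyIC the library with the lowest Kupffer sum (replicate 0 in each) had neither the lowest Cd86 nor the lowest Lgals9. Of 12 monocyte and macrophage markers 4 rose and 3 fell, the falling ones, named after their values were seen, being Csf1r, Mertk and Cd68. B cell markers fell in 11 of 11, at 90.5 to 192 FPKM in combination, 204 to 511 FPKM in antiPDL1, 285 to 457 FPKM in polyIC and 526 to 1404 FPKM in control libraries, with the highest sum in control replicate 2, the library with the highest Icosl. In polyIC the highest B cell sum and the highest Icosl also shared a library (replicate 1), but in combination they did not. In antiPDL1 the library with the highest B cell sum (replicate 2) had the lowest Icosl of the group. Of 12 conventional dendritic cell markers 4 fell and none rose, with sums of 334 to 440 FPKM in combination, 358 to 594 FPKM in antiPDL1, 225 to 360 FPKM in polyIC and 397 to 502 FPKM in control libraries. Sinusoidal endothelial cell markers fell in 10 of 10, at 49.3 to 102 FPKM in combination, 145 to 358 FPKM in antiPDL1, 218 to 261 FPKM in polyIC and 217 to 848 FPKM in control libraries. Of 10 plasmacytoid dendritic cell markers 8 fell, with sums of 532 to 775 FPKM in combination, 878 to 1331 FPKM in antiPDL1, 824 to 1229 FPKM in polyIC and 1289 to 2409 FPKM in control libraries. No marker in these lists was at 0 in every library, and their part in the ligand values was not tested.

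Across the 12 libraries the 7 genes fell into sets by Pearson r of log2(FPKM + 1), given as a description over libraries that share groups and differ in depth. Cd80, Cd86 and Lgals9 went together, with r of 0.86 for Cd86 with Cd80, 0.82 for Lgals9 with Cd86 and 0.72 for Lgals9 with Cd80. With group means taken off, the r of Lgals9 with Cd86 was 0.65, and -0.69 over the 9 libraries without the controls. Cd274 and Pdcd1lg2 had r = 0.77 with each other. Cd274 had r of 0.04 with Cd86 and 0.15 with Lgals9, and Icosl had r between -0.22 and 0.43 with the other 6.

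The ligands were set beside single genes known from several cell types. Cd86 and Lgals9 had r of 0.71 and 0.72 with Csf1r, the receptor gene of macrophages and monocytes. Their r was 0.74 and 0.73 with Adgre1, which encodes F4/80 of macrophages. When group means were taken off, their r with Csf1r was 0.68 and 0.63. Over the 9 libraries without the controls it was then -0.06 and -0.13. Icosl had r of 0.86 with Ccr7 and 0.81 with the dendritic cell gene Flt3. Genes of myeloid cells did not give one picture for Cd274. It had r of -0.17 with Csf1r, -0.39 with Adgre1, 0.46 with Itgax and 0.82 with Lyz2, the lysozyme gene of macrophages, monocytes and neutrophils. Nor did they for Cd86 and Lgals9, which had r of -0.36 and -0.24 with Itgax and 0.49 and 0.38 with Lyz2. Cd274 had r of 0.95 with the mean of the interferon-gamma-induced genes, on which 5 libraries lay high and 7 low. After group means were taken off, this r was 0.93 over the 12 libraries and 0.67 over the 9 without antiPDL1. Pdcd1lg2 had r of 0.76 both with the interferon-gamma-induced mean and with Itgax (CD11c of dendritic cells and macrophages), and 0.75 with Lyz2. Myeloid genes were divided for Pdcd1lg2 too, with r of -0.29 with Csf1r, -0.49 with Adgre1, -0.28 with Flt3 and -0.04 with Ccr7. With group means taken off, its r with the interferon-gamma-induced mean was 0.65, and -0.08 over the 9 libraries without antiPDL1.

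**Figure D5:**
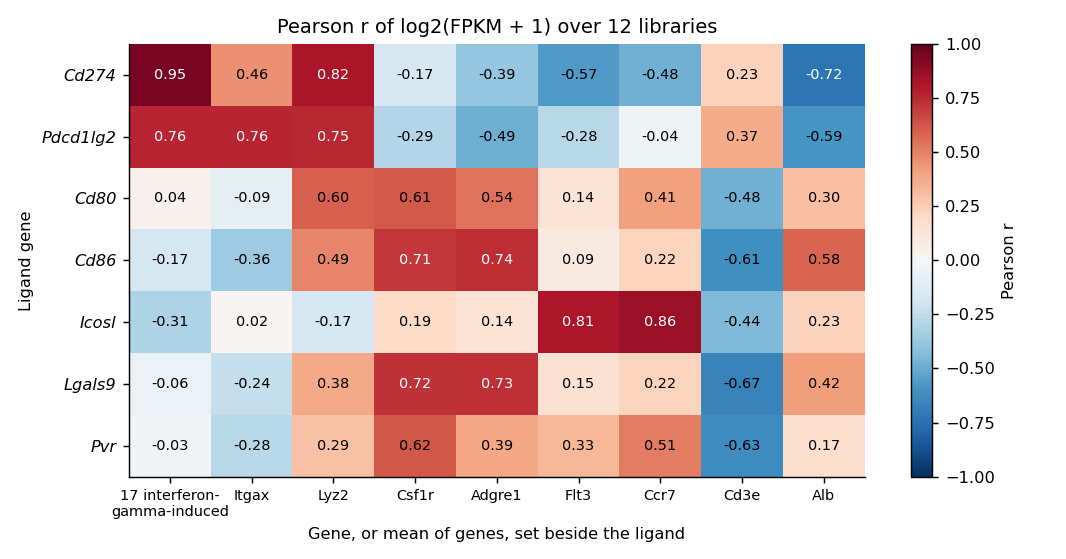
Pearson r over the 12 libraries between each ligand gene (vertical axis) and the mean of 17 interferon-gamma-induced genes or 1 gene known from dendritic cells and macrophages (Itgax), macrophages, monocytes and neutrophils (Lyz2), macrophages (Csf1r, Adgre1), dendritic cells (Flt3, Ccr7), T cells (Cd3e) or hepatocytes (Alb). The highest values are 0.95 for Cd274 with the interferon-gamma-induced genes and 0.86 for Icosl with Ccr7, and the values are a description with no test.

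Among 11261 candidate genes the ones most like each ligand over the 12 libraries were named by Pearson r of log2(FPKM + 1). Cd274 was most like Prdx5, a peroxiredoxin gene (0.973), Il27, which encodes a subunit of the cytokine IL-27 (0.964), and Plau, the urokinase gene (0.961). For Pdcd1lg2 they were Ptafr, the receptor gene for platelet-activating factor (0.936), AA467197 (0.925) and Bcl2a1a (0.922), whose reads may be shared with near-identical copies. Cd86 was most like the carbonic anhydrase gene Car13 (0.948), Hebp1 (0.936) and the ATP-gated channel gene P2rx4 (0.933), and Cd80 like H2-M2 (0.917), Depdc7 (0.880) and Arrdc4 (0.873). Lgals9 was most like Rsad2 (0.931), Il15 (0.916) and Irf7 (0.916), of which Rsad2 and Irf7 are genes induced by type I interferon. Icosl was most like Zfp296 (0.905), Fam83f (0.895) and Nek6 (0.888), and Pvr like Cd83, a surface protein gene of mature dendritic cells (0.855), Mreg (0.851) and Cacnb1 (0.814).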

How the data were processed

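RNA of 12 libraries, 3 in each of 4 groups given by the labels, was analysed from 1 deposited table of 24319 entries. The table does not name its unit; the authors' deposited values are taken as FPKM from their form and from Cuffdiff, which the submitters' processing notes name together with mm9. The sources used here give no aligner, strand setting or annotation. No counts were available, so absolute depth is unknown and no counting interval is given. The 7 genes and all lists were chosen with earlier results of these data known.

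Entries that reached 1 FPKM or more in 3 or more libraries were kept, and 9 genes listed at 0 in some libraries but high in others (failed estimates, Actb and Cd74 among them) were left out, which left 11991. limma (version 3.58.1, R 4.3.3) was fitted to log2(FPKM + 1) with a mean-variance trend, all 12 libraries together, with 2-sided tests and Benjamini-Hochberg adjustment over all genes tested; the procedure was tested on simulated data. Ratios were tested by exact permutation (scipy 1.17.1). The 7 ligand genes are named throughout; of each other list, up to 4 genes with the largest changes in the combination against control, up to 2 elsewhere and up to 2 per marker list; and the 3 genes most like each ligand by Pearson r. Departures from this rule are marked where they occur.

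Promoter stretches are from RefSeq (GRCm38.p6), which held 5 of the 7 genes by symbol. Alternatives changed the pseudocount (0.1), the filter (none, or a mean of at least 5 FPKM), the scaling, the libraries fitted, their weights and a term for replicate number; the comparisons pooled over 6 against 6 libraries were added after the values were seen. Some results are not reported here.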

Additional observations from a re-analysis of the deposited data

How the results depend on the processing

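Of 1147 values of the ligand genes under 21 other settings, 1033 kept their direction and their side of the threshold, 54 passed only under the other setting, 24 no longer passed and 36 changed sign. Of 2806 values of the other named genes, 2355 were kept, 451 no longer passed and 0 changed sign. The cause of the changes below was not tested beyond the libraries, genes or weights named. Absolute depth is unknown, and the low levels of Pdcd1lg2 and Pvr are the most exposed to it.

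Array quality weights, which weigh each library by its fit to its group, called 5 of the 7 in combination against control (Cd274, Cd80, Cd86, Icosl, Lgals9), 2 in antiPDL1 against control (Cd274, Pdcd1lg2), 4 in combination against antiPDL1, 4 in combination against polyIC, 2 with the antibody and 5 with polyIC. Over all genes they called 6883 in combination against control, 2585 in antiPDL1 against control, 3439 in polyIC against control, 818 in combination against antiPDL1, 3654 in combination against polyIC, 13 in the interaction, 5355 with the antibody and 4285 with polyIC. Without control replicate 2 and antiPDL1 replicate 2, 4 of the 7 passed in combination against control (Cd274, Cd80, Cd86, Lgals9), 2 in antiPDL1 against control, 1 in polyIC against control (Cd86), 1 in combination against antiPDL1 (Cd86), 2 in combination against polyIC (Cd274, Cd86), 3 with the antibody (Cd274, Pdcd1lg2, Cd86) and 5 with polyIC (Cd274, Cd80, Cd86, Lgals9, Pvr). All genes called were then 5184 in combination against control, 3375 in antiPDL1 against control, 2887 in polyIC against control and 86 in combination against antiPDL1. They were 1099 in combination against polyIC, 9 in the interaction, 4417 with the antibody and 3122 with polyIC.

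With a mean of at least 5 FPKM, the calls over all genes were 1963 in combination against control, 5 in antiPDL1 against control, 212 in polyIC against control, 6 in combination against antiPDL1, 77 in combination against polyIC, 1 in the interaction, 364 with the antibody and 878 with polyIC, where 1 of the 7 (Cd80) remained. With no filter they were 139 in antiPDL1 against control, 31 in combination against antiPDL1 and 26 in combination against polyIC, and the Cd274 call with the antibody was lost (0 of 7, limma adjusted p = 0.0629; 2 of 7 had an unadjusted p under 0.05 in the fit reported). Fitting the compared groups alone called 1 of the 7 (Cd274) in combination against control and 2 (Cd274, Cd86) in combination against polyIC. Over all genes it called 3191 in combination against control, 2 in antiPDL1 against control, 1 in combination against antiPDL1 and 1344 in combination against polyIC. Quantile normalization called 2 of the 7 in combination against control (Cd274, Lgals9). Over all genes it called 3648 in combination against control, 783 in polyIC against control and 6 in combination against polyIC. Median-of-ratios rescaling called 1 of the 7 (Cd274) in combination against control, beside 4008 of all genes. A pseudocount of 0.1 called 344 genes in combination against polyIC.

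The replicate numbers are not stated to pair the libraries or to mark a shared batch. Deviations of same-numbered libraries from their group means correlated at -0.284 to 0.31 over 18 pairs, and 4 were over 0.1. With 3 libraries per group, these values cannot decide whether the numbers pair the libraries. With a replicate block, 1 of the 7 (Cd274, limma adjusted p = 0.0329) passed in combination against control, beside 3918 of all genes. All genes called were 1 in combination against antiPDL1 and 7 in combination against polyIC.

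Leaving out 1 library at a time gave 0 to 3 of the 7 called in combination against control, 0 to 2 in antiPDL1 against control, 0 to 1 in polyIC against control, 0 to 2 in combination against antiPDL1, 0 to 1 in combination against polyIC, 0 to 2 with the antibody and 0 to 4 with polyIC. Over all genes it gave 1664 to 4504, 1 to 2086, 44 to 1869, 0 to 330, 2 to 528, 106 to 3631 and 583 to 3066 calls in the same comparisons, and 1 to 6 in the interaction.

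Changes of sign were as follows, on the log2 scale. In antiPDL1 against control, Cd86 was -0.11 with array weights, -0.23 without both libraries and -0.15 to 0.62 without 1 library; Lgals9 was -0.13 with quantile normalization, -0.052 without both libraries and -0.16 to 0.30 without 1; Icosl was 0.074 without both libraries; and Pvr was -0.039 to 0.16 without 1. In polyIC against control, Cd274 was -0.077 with array weights, -0.14 without both libraries and -0.14 to 0.17 without 1, Cd86 was -0.63 to 0.14 and Lgals9 -0.40 to 0.066 without 1. In combination against antiPDL1, Cd274 was -0.66 to 0.11 without 1 library. In the interaction, Cd274 was -0.70 to 0.072 without 1 library, Icosl -0.39 with array weights, -0.28 without both libraries and -0.21 to 0.21 without 1, and Pvr -0.045 with array weights and -0.025 to 0.18 without 1. With the antibody, Cd80 was -0.045 with array weights and Cd86 -0.34 to 0.046 without 1 library. With polyIC, Cd274 was -0.31 to 0.076 and Pdcd1lg2 -0.25 to 0.069 without 1 library.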

Other observations

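With each group's mean taken off, the Pearson r over the 12 libraries, given as a description, was 0.93 between Cd274 and the mean of the interferon-gamma-induced genes, and 0.67 over the 9 libraries that leave out the antiPDL1 group. For Cd274 and Pdcd1lg2 it was 0.58 over 12 libraries and -0.25 over the 9 without antiPDL1. For Cd86 and Csf1r it was 0.68 over 12 and -0.06 over the 9 without the controls, and for Lgals9 and Csf1r it was 0.63 and -0.13. For Pdcd1lg2 and the interferon-gamma-induced mean it was 0.65 over 12 and -0.08 over the 9 without antiPDL1. For Cd86 and Lgals9 it was 0.65 over 12, 0.86 over the 9 without antiPDL1 and -0.69 over the 9 without the controls. For Cd80 and Cd86 it was 0.77 over 12, 0.83 over the 9 without antiPDL1 and 0.68 over the 9 without the controls. For Icosl and Ccr7 it was 0.78 over 12, 0.91 over the 9 without antiPDL1 and 0.52 over the 9 without the controls. These pairs were chosen after the values were seen, and the libraries share groups and differ in depth.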
